A study of Mus musculus with 4 samples.

Results

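Keratin genes were examined in 4 mouse lung tumours, as the 51 rows of the deposited count table, out of 39017 genes in all, whose symbol was Krt followed by a number and at most 1 letter. The 4 tumours formed a single group labelled Control. Each came from a male C57BL/6 mouse on the C57BL6/J background of the KP model of lung adenocarcinoma, which carries p53Fl/Fl, p53 alleles that Cre deletes, beside a further allele that Cre switches on. Per the labels, 1500 units of the virus lenti.PGK-Cre were delivered through the trachea, and tumours were macrodissected 22 weeks and 5 days later, dissociated to single cells and lysed for polyadenylated RNA. The PGK promoter is active in most cell types, so Cre was not limited to one of them. The labels also call the mice heterozygous fl/wt without naming that gene, and in the study's methods a control may carry floxed Slc2a1 on one chromosome or on neither. There was 1 library per tumour and no tumour-free lung, so that all comparisons below are among the 4 tumours or among genes within them.

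Keratins form the intermediate filaments of epithelial cells. A filament is built from pairs of an acidic type I and a basic or neutral type II keratin, and an unpaired partner is degraded, so the classes are usually read as pairs. Simple epithelia such as the alveolar lining and the bile ducts use Krt8 (type II) with Krt18 (type I), joined in many glandular epithelia by Krt7 (II) and Krt19 (I). Stratified squamous epithelia use Krt5 with Krt14 in the basal layer, Krt1 with Krt10 above it and Krt6a with Krt16 or Krt17 after injury, and Krt5 and Krt14 also mark basal cells of the airway. Hair and nails use a further set. In pathology Krt7, Krt8, Krt18 and Krt19 accompany adenocarcinoma, and Krt5, Krt6a and Krt14 accompany squamous carcinoma. By this textbook division the 51 genes held 6 simple, 20 squamous and 23 hair keratins, besides Krt42 and Krt222, which were kept apart. GENCODE M21 annotates Krt74, in the hair class, as a pseudogene, and it had 0 counts in all tumours. The genes that M21 names Krt83, Krt88 and Krt90 are listed under other symbols, outside the 51, with at most 3 counts in any tumour.

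The genes lie in 2 clusters. In GENCODE M21 (GRCm38), 27 type I genes were within 1037.1 kb of chromosome 11 (chr11:99232761-100269871) and 23 type II genes within 657.0 kb of chromosome 15 (chr15:101347444-102004482). Krt18 is a type I gene outside the type I cluster. Krt18 (chr15:102028180-102032027, plus strand) lies 23697 bp from the end of Krt8 (chr15:101996698-102004482, minus strand), and both are transcribed away from the space between them.

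The sequences upstream of 5 simple keratins are shown because these genes had unlike behaviour across the tumours, with Krt8, Krt18 and Krt7 differing together, Krt20 differing most and Krt23 least. They are from RefSeq (GRCm38.p6), are written 5′ to 3′ on the strand of the gene, and end before the first base of the principal GENCODE transcript. Capitals mark letters that match 1 of 5 short motifs on either strand.
Krt8 (chr15:102004483-102004592, minus strand): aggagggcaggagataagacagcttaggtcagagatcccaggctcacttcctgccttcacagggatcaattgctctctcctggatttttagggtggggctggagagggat
Krt18 (chr15:102027966-102028179, plus strand): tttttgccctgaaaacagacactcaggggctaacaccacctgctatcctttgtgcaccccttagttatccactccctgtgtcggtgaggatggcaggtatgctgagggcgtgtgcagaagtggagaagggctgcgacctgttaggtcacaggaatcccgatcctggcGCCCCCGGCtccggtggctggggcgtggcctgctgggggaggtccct
Krt7 (chr15:101412153-101412401, plus strand): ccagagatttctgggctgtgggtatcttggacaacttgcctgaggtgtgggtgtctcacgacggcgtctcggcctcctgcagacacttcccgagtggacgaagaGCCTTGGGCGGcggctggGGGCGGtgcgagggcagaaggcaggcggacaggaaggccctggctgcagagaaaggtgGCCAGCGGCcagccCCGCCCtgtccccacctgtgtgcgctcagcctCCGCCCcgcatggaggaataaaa
Krt20 (chr11:99438154-99438403, minus strand): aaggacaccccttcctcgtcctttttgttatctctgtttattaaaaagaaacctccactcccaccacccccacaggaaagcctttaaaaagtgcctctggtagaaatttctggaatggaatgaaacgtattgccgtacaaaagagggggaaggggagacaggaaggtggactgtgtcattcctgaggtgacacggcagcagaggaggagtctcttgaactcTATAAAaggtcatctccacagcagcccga
Krt23 (chr11:99493138-99493370, minus strand): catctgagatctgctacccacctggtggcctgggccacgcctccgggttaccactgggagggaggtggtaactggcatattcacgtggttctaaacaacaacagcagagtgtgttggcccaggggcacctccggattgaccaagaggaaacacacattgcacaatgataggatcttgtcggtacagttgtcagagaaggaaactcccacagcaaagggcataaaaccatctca
The motifs were the TATA box (TATAAA), the GC box (GGGCGG), the CCAAT box (CCAAT), the AP-1 motif (TGANTCA) and the AP-2 motif (GCCNNNGGC), searched on both strands in the 250 bases before each RefSeq start site. Of the 51 keratins, 35 had such a window. A TATA box was present in 17 of 35 keratins and in 12.4% of all 32851 windows, and a GC box in 2 of 35 keratins and in 32.7% of all windows. The CCAAT box was found in 14 of 35 keratins (33.8% of all windows), AP-2 in 4 (13.7%) and AP-1 in 1 (6.75%). Krt20 had a TATA box at -29 to -24 counted from the start site. Krt7 had 4 GC boxes and 2 AP-2 matches, of which the AP-2 match at -146 to -138 overlapped the GC box at -141 to -136. Krt18 had 1 AP-2 match at -83 to -75, and neither Krt8 nor Krt23 held any of the 5. A match is a run of letters and not a measured binding site.

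The 4 libraries held between 8151613 and 8799007 counts. Levels are given as CPM, counts per 1000000 of a library size scaled by TMM, a method that makes the bulk of genes equal between libraries, and 3 counts, taken as the floor of detection, were worth between 0.330 and 0.370 CPM. Levels of different genes were compared per kb of annotated exon (CPM per kb), and a value without length scaling is named as such. Intervals and floors cover counting error only, and since nothing states that the tumours came from separate mice, the differences between tumours may include technical ones. Across all genes with a mean of at least 1 CPM, the common biological coefficient of variation was 30.8%.

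**Figure D1:**
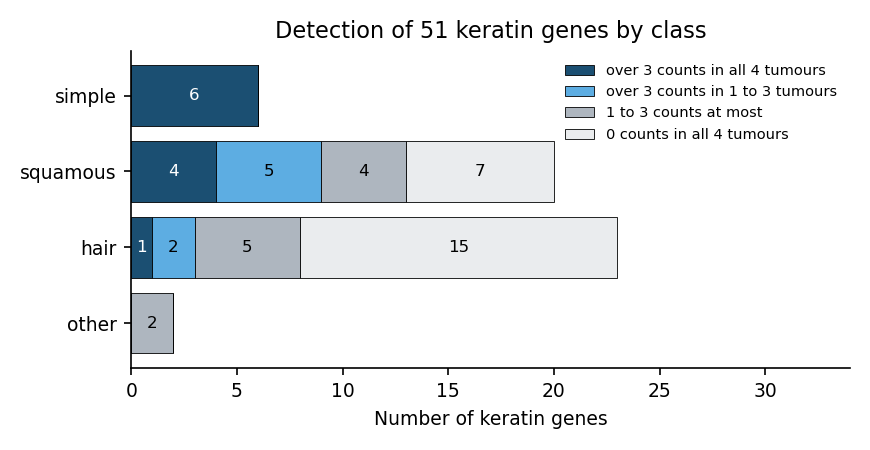
Number of keratin genes (x axis) in each class (y axis) with over 3 counts in all 4 tumours, in 1 to 3 tumours, or in none. All 6 simple keratins were over the floor in every tumour, whereas 20 of 23 hair keratins were not over it in any.

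Of the 51 keratins, 11 were over 3 counts in all 4 tumours and 7 in 1 to 3 tumours, and 33 were at or under the floor in every tumour, 22 of them with no count at all. All 6 simple keratins were over the floor in every tumour. Among squamous keratins, 4 of 20 were (Krt10, Krt78, Krt79 and Krt80), and 5 more (Krt4, Krt5, Krt6a, Krt14 and Krt17) were over it in some tumours. The hair keratins over the floor were Krt83 in all 4 tumours and Krt25 and Krt84 in some. The 11 squamous keratins at or under the floor included the partners of the suprabasal and injury pairs, Krt1 with 0 counts in each tumour and Krt16 with 2, 0, 2 and 0 counts in tumours 1 to 4. The airway basal cell keratin Krt15 had 2, 0, 1 and 0 counts. At this depth lower levels of these genes were not detectable.

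**Figure D2:**
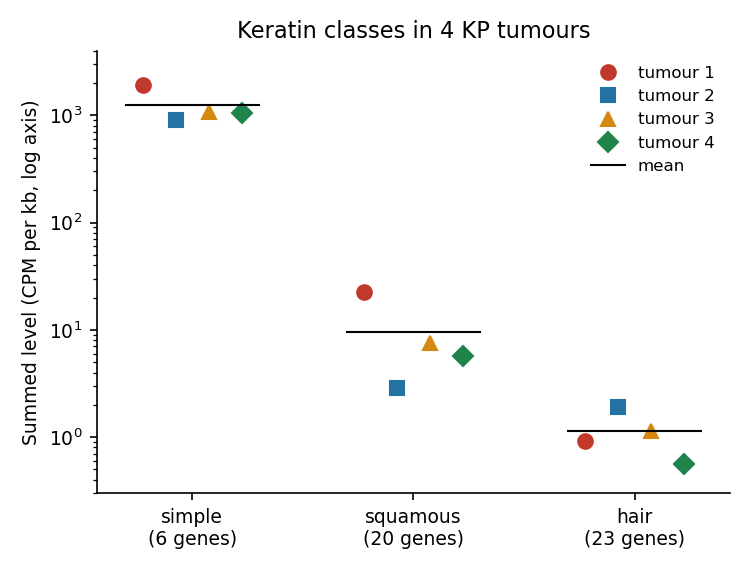
Summed level of each keratin class in CPM per kb (y axis, log scale) in each tumour (points), with the mean of the 4 as a line. Simple keratins sat between 913 and 1936, squamous keratins between 2.87 and 22.3, and hair keratins between 0.567 and 1.91 CPM per kb.

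Nearly all keratin RNA was of the simple class. The summed level of simple keratins was 1936, 913, 1066 and 1062 CPM per kb in tumours 1 to 4. That of squamous keratins was 22.3, 2.87, 7.60 and 5.75 CPM per kb, and that of hair keratins was 0.913, 1.91, 1.15 and 0.567 CPM per kb. The ranges of the 3 classes did not overlap, and tumour 1 was highest for simple and squamous keratins while tumour 2 was lowest for both and highest for hair keratins. Most of the squamous sum of tumour 1 came from Krt14 and Krt6a, at 12.0 and 3.19 CPM per kb there and at most 0.474 elsewhere. The place of tumour 1 as highest for squamous keratins rested on these genes and does not describe the whole class. Simple keratins made up 98.8%, 99.5%, 99.2% and 99.4% of the summed level (mean 99.2% ± 0.300, SD, n = 4). The sum of simple keratins was higher than that of squamous keratins by 7.35 ± 0.78 on the log2 scale (SD, n = 4), or 163-fold, and higher than that of hair keratins by 10.17 ± 0.99. The sum of squamous keratins was higher than that of hair keratins by 2.82 ± 1.68, with a difference as small as 0.59 in tumour 2 and as large as 4.61 in tumour 1. Each of these 3 differences had the same direction in 4 of 4 tumours, with p = 0.125 when the signs of the 4 differences were flipped in every way (exact permutation test, two-sided, adjusted p = 0.125 over the 12 contrasts made within tumours), which is the smallest p that 4 tumours can give. All keratins together took 0.402%, 0.176%, 0.214% and 0.212% of the counts of tumours 1 to 4.

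Krt8 and Krt18, the pair of simple epithelia, were the most abundant keratins. Krt18 was at 1269, 639.7, 748 and 753 CPM in tumours 1 to 4 (mean 852 ± 283, SD, n = 4), and Krt8 was at 1261, 589, 676 and 632 CPM (mean 789.6 ± 316). In rank of mean CPM over all genes, which takes no account of length, Krt18 was number 76 and Krt8 number 85. Both were highest in tumour 1, with the other 3 closer together and tumour 2 lowest. Tumour 3 was 1.17 times tumour 2 for Krt18 (95% interval 1.13 to 1.21), and tumour 4 was 1.07 times tumour 2 for Krt8 (1.03 to 1.11). Tumour 1 was 1.69 times tumour 4 for Krt18 (95% interval 1.63 to 1.74) and 1.86 times tumour 3 for Krt8 (1.81 to 1.93), by exact conditional intervals of the counts. Per kb, Krt18 was at 883, 445, 521 and 524 and Krt8 at 644, 301, 345 and 323 CPM per kb. Krt8 was thus lower than Krt18 in each tumour, with differences of -0.46, -0.56, -0.59 and -0.70 on the log2 scale (mean -0.58 ± 0.10, SD, n = 4, p = 0.125 by the exact sign-flip permutation test). Without length scaling this difference was -0.13 ± 0.10. GENCODE M21 also annotates Krt8-ps, a pseudogene that shares 941 nt at 98.6% identity with Krt8 and has no row in the count table, so reads could be split between them.

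Krt19, the smallest keratin and a type I partner of glandular epithelia, was at 457, 154, 172 and 187 CPM (mean 242 ± 144, SD, n = 4). Tumour 1 was again high, at 2.45 times tumour 4 (95% interval 2.31 to 2.60), and the other tumours lay close together. Krt7, a type II keratin of glandular and transitional epithelia, was at 758, 337, 454 and 463 CPM (mean 503 ± 179.5). Here tumour 1 was 1.64 times tumour 4 (1.57 to 1.70) and tumour 2 stood below the others, tumour 3 being 1.35 times as high (1.28 to 1.42). Krt23, a type I keratin related to the simple ones, was the even member of the class, at 70.5, 53.7, 66.8 and 74.7 CPM (mean 66.4 ± 9.09). Tumours 4 and 1 differed by a factor of 1.06 (95% interval 0.947 to 1.18), and its whole range was 1.39-fold (1.23 to 1.57).

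Krt20, the type I keratin of intestinal epithelium, urothelial umbrella cells and Merkel cells, was the uneven member. It was at 18.0, 2.67, 0.494 and 3.21 CPM in tumours 1 to 4, from 164, 23, 4 and 27 counts. Tumour 1 was 5.62 times tumour 4 (95% interval 3.72 to 8.79), and tumour 3 was low, tumour 2 being 5.41 times as high (1.85 to 21.5). The mean of 6.11 ± 8.05 CPM (SD, n = 4) was therefore set by tumour 1, and the other 3 tumours averaged 2.13 CPM.

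Ordered by mean level per kb, the simple keratins were Krt18 (593 CPM per kb), Krt8 (403), Krt19 (131), Krt7 (71.3), Krt23 (42.4) and Krt20 (3.17). Every step of this order held in 4 of 4 tumours when neighbours were compared within a tumour, with p = 0.125 for each by the exact sign-flip permutation test. The step from Krt8 to Krt19 was 1.71 ± 0.23 on the log2 scale, that from Krt7 to Krt23 was 0.70 ± 0.38, and that from Krt23 to Krt20 was 4.78 ± 2.09 (SD, n = 4 each). The place of Krt7 rested on its length. Its annotated exons add up to 7049 nt but its principal transcript to 4094 nt, and with the principal transcript Krt7 minus Krt19 went from -0.78 ± 0.30 to -0.23 ± 0.30 with 3 of 4 tumours below 0, so that these 2 genes could not be put in order.

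Over the whole family, type I keratins summed to 1199, 565, 657 and 676 CPM per kb and type II keratins to 760.3, 352, 417 and 393 CPM per kb. Type I genes thus held 61.2%, 61.6%, 61.2% and 63.2% of the sum, and this proportion differed little between tumours although the sums differed. Type II minus type I was -0.69 ± 0.06 on the log2 scale (SD, n = 4), in the same direction in 4 of 4 tumours (p = 0.125, exact sign-flip permutation test). The direction turned to 0.16 ± 0.05 without length scaling. RNA levels do not measure the filament proteins.

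**Figure D3:**
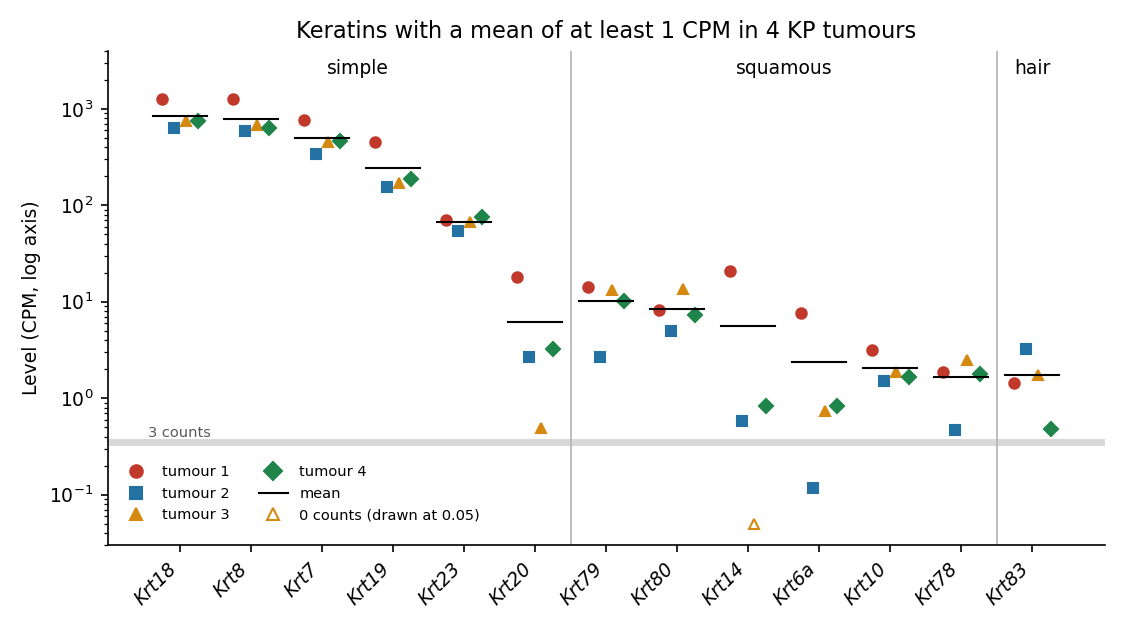
Level in CPM (y axis, log scale) of each of the 13 keratins with a mean of at least 1 CPM (x axis, by class), in each tumour (points), with the mean as a line. The grey band marks 3 counts. Tumour 1 sat above the others for Krt18, Krt8, Krt7, Krt19, Krt20, Krt14 and Krt6a, whereas Krt23 lay in a narrow range.

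Among squamous keratins, the largest differences between tumours were in Krt14 and Krt6a. Krt14, the type I keratin of basal cells, was at 21.0, 0.581, 0 and 0.833 CPM in tumours 1 to 4, from 191, 5, 0 and 7 counts. It was thus well detected in tumour 1 and near or under the floor elsewhere. Tumour 1 was 25.2 times tumour 4 (95% interval 12.0 to 63.6). With tumour 3 taken at the floor of 3 counts in that library, tumour 1 was 56.8 times tumour 3. From the 0 counts themselves, the exact 95% lower limit of the ratio to tumour 3 was 45.7. Krt6a, a type II keratin of wounded and hyperproliferative epidermis, was at 7.70, 0.116, 0.740 and 0.833 CPM, from 70, 1, 6 and 7 counts. Tumour 1 was 9.25 times tumour 4 (4.26 to 23.9). Both genes reached a mean of 1 CPM only through tumour 1, and the other 3 tumours averaged 0.471 CPM for Krt14 and 0.563 CPM for Krt6a.

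The usual partners were low in every tumour. Krt5, the type II partner of Krt14, had 4, 1, 2 and 2 counts, or 0.440 CPM in tumour 1. Krt16, a partner of Krt6a, had at most 2 counts, and Krt17, another, had 6, 2, 0 and 3 counts. In tumour 1 the level of Krt14 was 12.0 and that of Krt6a 3.19 CPM per kb, while in the other tumours they were at or under 0.474 CPM per kb. Trp63, the regulator that defines basal and squamous cells, had 0, 1, 3 and 9 counts, so that it had no count in the tumour where Krt14 was high. Of the 7 genes of the basal cell list, Ngfr, Dsg3, Col17a1 and Bnc1 were at or under the floor in all tumours. Dsc3, a desmosomal cadherin of that list, had 17, 7, 3 and 8 counts, highest in tumour 1, and it varied beyond counting noise (adjusted p = 0.0237). The 2 members with a mean of at least 1 CPM, Dsc3 and Snai2, were on average at 0.64, 0.04, -0.29 and 0.29 log2 CPM, and the summed level of all 7 was 3.52, 2.32, 2.22 and 3.92 CPM. In bulk RNA, a few cells with much Krt14 and many cells with little cannot be told apart, and the same holds for all levels here.

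The other squamous keratins with a mean of at least 1 CPM had smaller ranges. Krt79, a type II keratin of skin appendages, was at 14.1, 2.67, 13.3 and 10.2 CPM (mean 10.1 ± 5.21, SD, n = 4). Tumour 2 was the low one, with tumour 4 being 3.83 times as high (95% interval 2.39 to 6.36), and tumours 1 and 3 differed by a factor of 1.06 (0.812 to 1.38). Its neighbour Krt78, of stratified epithelia, was at 1.87, 0.465, 2.47 and 1.78 CPM and was also lowest in tumour 2. Krt80, found in many epithelia during differentiation, was at 8.14, 4.99, 13.5 and 7.26 CPM (mean 8.46 ± 3.58) and was highest in tumour 3, at 1.65 times tumour 1 (1.22 to 2.25). Krt10, the suprabasal type I keratin, was at 3.19, 1.51, 1.85 and 1.67 CPM. Its difference between tumours did not pass the test of counting noise. Krt4, a keratin of the oesophagus, had 0, 1, 5 and 0 counts.

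One row of the hair class was tested. It is listed as Krt83, and its identifier (ENSMUSG00000047641) belongs to a gene that GENCODE M21 names Krt87. It was at 1.43, 3.25, 1.73 and 0.476 CPM, from 13, 28, 14 and 4 counts. Tumour 2 was highest and tumour 4 lowest, and tumour 2 over tumour 3 was 1.88 with an interval that included 1 (0.958 to 3.87). It shares 397 nt at 97.2% identity with Krt81, which had 0 counts in all tumours, and it borders Krt7 on chromosome 15. Krt25 had 1, 6, 2 and 1 counts and Krt84 had 1, 0, 4 and 5, and the other 20 hair keratins had at most 2 counts in any tumour.

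**Figure D4:**
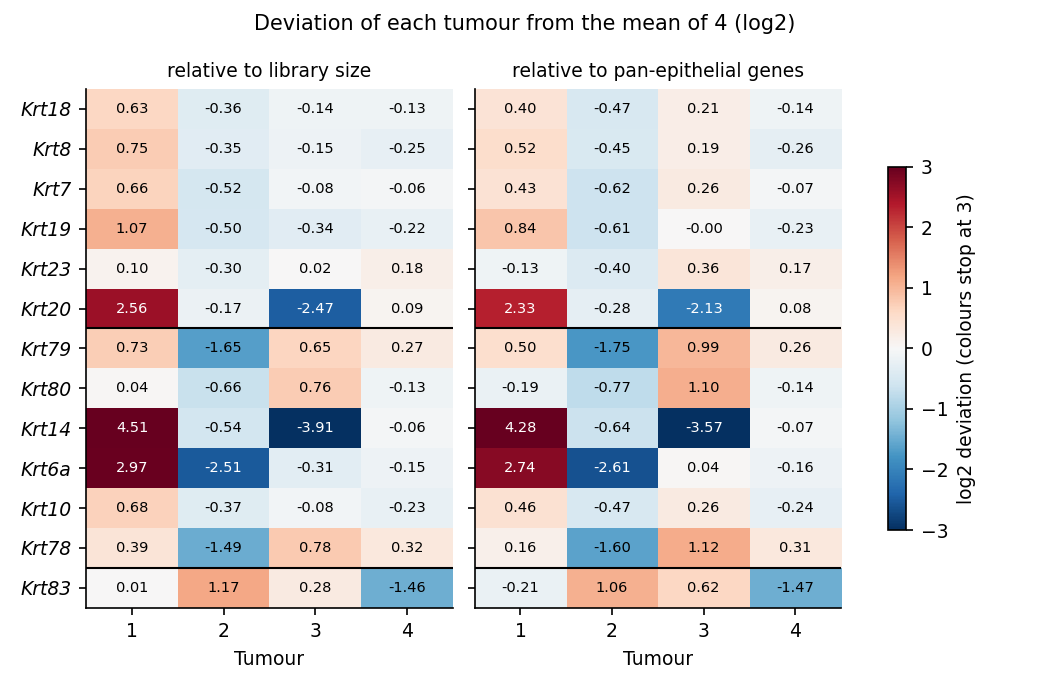
Log2 deviation of each tumour (columns) from the mean of the 4 for each keratin (rows, by class), relative to library size at left and to the mean of 12 pan-epithelial genes at right. Tumour 1 is above the mean for all 6 simple keratins at left and for all but Krt23 at right.

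To set the keratins against the transcriptome, the counts of each gene were compared across tumours with a chi-square test against equal levels, adjusted by Benjamini-Hochberg over the 14225 genes with a mean of at least 1 CPM. Of the 13 keratins in that test, 12 varied beyond counting noise, beside 76.7% of all genes tested. Krt10 did not (adjusted p = 0.0684), and the highest adjusted p among the others was 0.0161, for Krt78. No keratin had 1 tumour apart by Dixon's ratio at the 95% level, beside 5.86% of all genes tested, and none of 13 is near that share. For Krt14 and Krt6a the ratio was only 0.54 and 0.57, because a tumour with 0 or 1 count widened the log2 range. Krt8 and Krt19 came closest on the high side of tumour 1, with a ratio of 0.82 each. Tumour 1 was the highest for 9 of 13 keratins (31.4% of all genes) and at least 1.5 times the next for 8 of 13 (4.91%). Tumour 2 was the lowest for 10 of 13 (19.4%), and the highest was at least 4 times the lowest for 6 of 13 (8.15%). The gene-wise coefficient of variation was above the trend at its level for 10 of 13 (22.9%). The median SD of log2 CPM was 0.72 over the 13 keratins and 0.29 over all genes tested. Both this SD and the 4-fold range grow with counting noise at low levels, and neither was matched for level. The 6 keratins with a 4-fold range had means between 1.65 and 10.1 CPM. Krt14 and Krt6a entered these counts only through tumour 1, so the counts describe the genes that passed and do not stand for the family. In SD of log2 CPM, Krt20 ranked 174 and Krt23 ranked 9816 among the 14225 genes.

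The difference of tumour 1 was seen beside other differences in the make-up of the tumours. Over 12 pan-epithelial genes such as Epcam and Cdh1, the mean level was 7.54, 7.42, 6.97 and 7.32 log2 CPM, highest in tumour 1 and lowest in tumour 3. The members did not all follow this mean, and tumour 1 was the highest for 5 of the 12 (31.4% of all genes tested). Epcam was at 600.3, 470.4, 218 and 371 CPM, whereas Cdh1 was nearly level at 842, 887, 846 and 876 CPM and lowest in tumour 1. When keratins were taken relative to that mean, an alternative chosen after the data were seen, the log2 excess of tumour 1 over the mean of the others went from 1.43 to 1.13 for Krt19, from 1.00 to 0.70 for Krt8, from 0.87 to 0.57 for Krt7, from 0.84 to 0.54 for Krt18 and from 3.41 to 3.11 for Krt20. This scaling took the same 0.30 from every gene, so that the small excess of Krt23 went from 0.13 to -0.17.

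**Figure D5:**
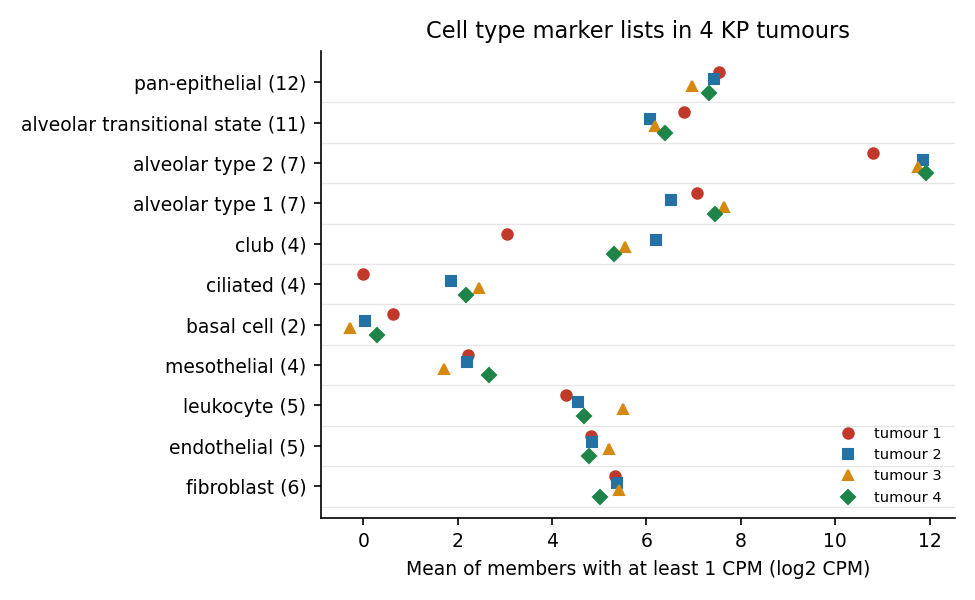
Mean level of each cell type marker list in log2 CPM (x axis) in each tumour (points), over the members with a mean of at least 1 CPM, whose number is in parentheses. By this mean, tumour 1 was the lowest for the alveolar type 2, club, ciliated and leukocyte lists. It was the highest for the pan-epithelial, alveolar transitional and basal cell lists. The basal cell mean rests on 2 of 7 genes, of which Snai2 was highest in tumour 3, and the sum of the 7 was highest in tumour 4.

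List levels are means over the members with a mean of at least 1 CPM. The list of alveolar type 2 markers, such as surfactant protein C, was at 10.80 log2 CPM in tumour 1 and between 11.75 and 11.92 in the others. Its members Sftpc, Sftpa1, Lamp3 and Slc34a2 were lowest in tumour 1, and Nkx2-1 was alike in tumours 1 and 3 (289.8 and 291 CPM). Sftpb (8261, 11840, 6601 and 10400 CPM) and Abca3 (876, 1134, 759 and 1066 CPM) were lowest in tumour 3. The list of the alveolar type 1 lineage was at 7.06 in tumour 1 and between 6.52 and 7.65 in the others. The 4 club cell markers were at 3.05 log2 CPM in tumour 1 and between 5.32 and 6.20 in the others, and the 4 ciliated cell markers at -0.01 against 1.85 to 2.46. The ciliated value in tumour 1 included Dnah5, with 0 counts there, and the summed level of that list was 17.7, 17.5, 35.3 and 31.6 CPM. Normal airway epithelium also expresses Krt8, Krt18, Krt7 and Krt19. The mean levels of these 2 airway lists were lowest in the tumour where the 4 keratins were highest, but single markers were not all so, with Ccdc39 at 5.17 CPM in tumour 1 and between 3.02 and 4.28 CPM in the others. The 11 genes of the alveolar transitional state, a state described with high Krt8 between alveolar type 2 and type 1 cells, were at 6.80, 6.07, 6.18 and 6.40 log2 CPM, with tumour 1 highest for 8 of 11 (31.4% of all genes tested). Mesothelial cells express simple keratins too, and their list was at 2.21, 2.19, 1.72 and 2.67 log2 CPM, highest in tumour 4. The leukocyte list was lowest in tumour 1, at 4.29 against 4.54 to 5.50 log2 CPM. The endothelial list (4.78 to 5.21) and the fibroblast list (5.02 to 5.42) were highest in tumour 3 by this mean, but the summed level of the fibroblast list was highest in tumour 1, at 531, 395, 499 and 301 CPM, and so was its member Col1a1, at 125, 66.9, 49.4 and 32.2 CPM. The part of these differences in the keratin levels was not tested.

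Keratin filaments are anchored at desmosomes and hemidesmosomes and, in squamous cells, joined to the cornified envelope. Of 69 genes of these structures, of their regulators and of other intermediate filaments that were found in the table, 41 had a mean of at least 1 CPM. Of these, 38 varied beyond counting noise (92.7%, beside 76.7% of all genes), and 17 were highest in tumour 1 (41.5%, beside 31.4%). Desmosome genes varied in 9 of 9 tested cases. Desmoplakin (Dsp), which ties keratins to the desmosome, was at 303, 255, 139.7 and 172 CPM, highest in tumour 1 and lowest in tumour 3. The epidermal desmosomal cadherins Dsg1b, Dsg3, Dsg4 and Dsc1 were at or under the floor in all tumours. Dsg1a of the same list was over it in each, with 4, 36, 43 and 7 counts in tumours 1 to 4. Dsg1a also varied beyond counting noise (adjusted p = 9.65e-12, chi-square test), and Dsg1c had 7, 1, 3 and 1 counts. Hemidesmosome genes varied in 8 of 8 cases with mean levels between 7.14 and 7.27 log2 CPM in the 4 tumours, and Col17a1 was at or under the floor.

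Genes of the cornified envelope varied in 7 of 7 cases (76.7% of all genes tested) without a common order of tumours. Ivl (involucrin, an envelope precursor) was at 37.2, 31.0, 134 and 27.0 CPM, highest in tumour 3. Tgm1, a transglutaminase that cross-links envelope proteins, was at 60.5, 35.2, 37.5 and 34.7 CPM, with tumour 1 apart from the others. Dmkn, which encodes the secreted protein dermokine, was at 44.2, 288, 253 and 89.9 CPM and was lowest in tumour 1. Loricrin (Lor), filaggrin (Flg) and Sprr1b had no count, so these 3 markers of terminal squamous differentiation were not detectable. In the same list, Sprr1a (47, 40, 33 and 87 counts) and Sbsn (55, 83, 71 and 98) were detected in all tumours. Among regulators of stratified epithelia 7 of 8 varied, a share near that of all genes, with Klf4, Klf5 and Grhl1 detected in all tumours, while Sox15, Tfap2a, Tfap2c, Bnc1 and Pitx1 were at or under the floor. Tfap2b, an AP-2 transcription factor, was at 151, 8.60, 0 and 2.50 CPM in tumours 1 to 4, high in tumour 1 and without a count in tumour 3. Among other intermediate filaments, vimentin (Vim), the filament of mesenchymal cells, was at 150.1, 123, 211 and 114 CPM, highest in tumour 3, and Lmna, which encodes nuclear lamins A and C, was at 144, 72.1, 42.7 and 70.2 CPM, highest in tumour 1.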

How the data were processed

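RNA-seq counts of 4 tumours were used. Per the labels and the study's methods, TruSeq stranded libraries made from 500 ng of RNA were sequenced as 85-nt single-end reads, trimmed with Cutadapt and aligned to mm10 with HISAT2. The submitters' processing notes name featureCounts 1.4.4. The strand setting and the annotation release are not given in the sources used here. The authors deposited raw counts per Ensembl gene, per tumour and as a combined table (156068 of 156068 values equal), and a table of log2 normalised counts (TMM and voom, per the methods), used only as an alternative. The methods give a viral dose other than the 1500 units of the labels. Totals per library ran from 8151613 to 8799007 counts.

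TMM factors came from edgeR 4.0.16 (R 4.3.3), and tests from SciPy 1.17.1. Genes with a mean of at least 1 CPM entered a chi-square test of equal levels (3 degrees of freedom, Benjamini-Hochberg over 14225 genes, threshold 0.05), which asks only whether counts differ by more than counting noise. It was checked on simulated data. Dixon's ratio used log2 CPM with 0.5 added to counts. Contrasts within tumours used exact sign-flip permutation tests. There was 1 group, so no fit with edgeR or DESeq2 between groups was possible, and DESeq2 1.42.0 gave size factors and dispersions as alternatives. Lengths were exon unions of GENCODE M21, which matched 37693 of 39017 identifiers and all 51 keratins. Share intervals are Wilson 95% intervals, and copies were searched with BLAST 2.17.0. Named were all keratins with a mean of at least 1 CPM, the others by counts, and genes of 5 network lists with 1 tumour apart or with a mean of at least 5 CPM and a 4-fold range. Dsp, Vim, Lmna and the listed regulators were named as well-known members after their values were seen. Sprr1a and Sbsn were also named after their values were seen. The members and the 16 gene lists (144 of 145 entries matched) were chosen with earlier results of these data known. Alternatives covered size factors, filters, gene length, class membership, the deposited log2 table and leaving out each tumour. One allele of the model and 1 regulator of the lists are not reported here by name.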

Additional observations from a re-analysis of the deposited data

Results flagged for a closer look

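Of 38 sets of 4 values examined, 4 had 1 tumour apart from the others by Dixon's ratio at the 95% level, and none was a keratin. Tgm1 and Sync were among the 38 only because they already had 1 tumour apart by this rule. The count therefore cannot be set against the 1.90 that chance alone gives. The alveolar type 2 list was at 10.80 log2 CPM in tumour 1, below the 11.75 to 11.92 of the others. The endothelial list was at 5.21 log2 CPM in tumour 3, above the 4.78 to 4.85 of the others. Tgm1 was at 5.92 log2 CPM in tumour 1, above the 5.12 to 5.23 of the others. Sync, which encodes the intermediate filament protein syncoilin, was at -0.37 log2 CPM in tumour 4, below the 0.63 to 0.77 of the others, but its counts of 15, 13, 12 and 6 did not differ beyond counting noise (adjusted p = 0.365, chi-square test over all genes tested).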

How the results depend on the processing

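Of 67 alternatives to the counts, shares and contrasts reported, 62 kept the direction and stayed within 1.5 times a count or 1 SD of a share. Some of these could not have failed. In the simple share, simple minus squamous and type II minus type I, the library size cancels within a tumour, so other size factors had to give the same values. With a mean CPM of at least 10 required, 6 of 6 keratins varied beyond counting noise, beside 85.3% of all genes. The count was lower since fewer genes were tested. Without a filter, 7 of 29 keratins had 1 tumour apart (16.3% of all genes), all of them genes with at most 3 counts in any tumour. The share of simple keratins was 98.7% without length scaling and 95.6% with Krt23 left out of the class. Without length scaling, type II minus type I turned to 0.16 and Krt7 minus Krt19 to 1.14, and with principal transcript lengths the latter was -0.23. Relative to the pan-epithelial list, which takes the same 0.30 from every gene, the tumour 1 excess of Krt23 turned to -0.17. Leaving out 1 tumour at a time, the keratins that varied numbered 8 to 12. The lowest was 8 of 13 without tumour 2, beside 71.2% of all genes, so that the share over the background did not hold there. Without tumours 1 to 4 in turn, network genes varied in 33 of 40, 36 of 41, 37 of 41 and 33 of 41 cases. The shares of all genes beside these were 62.3%, 71.2%, 62.4% and 71.9%. Keratins detected in all remaining tumours numbered 11 to 12, and the simple share was 99.1% to 99.4%. Simple minus squamous was 7.03 to 7.66, type II minus type I -0.71 to -0.67 and Krt8 minus Krt18 -0.62 to -0.54. All 78 alternatives for the mean CPM of a named keratin stayed within 1 SD, but for Krt14, Krt6a and Krt20 that SD is set by tumour 1. DESeq2 put 9 of 13 keratins above its dispersion trend (24.5% of all genes). The principal transcript lengths, the Krt7 contrasts under other lengths and the pan-epithelial scaling of the tumour 1 excess were added after the data were seen. No paired analysis was possible because there was 1 group. With 4 tumours, 1 group and no lung without tumour, these data show differences between tumours and not their source.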
